A study of Mus musculus with 4 samples.

Results

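The fragile X protein FMRP, the product of Fmr1, binds a large set of brain mRNAs, mostly along their coding sequence, and is known as a repressor of their translation. Crosslinking work in mouse brain reported that many of these mRNAs are long and encode cytoskeletal, synaptic, ubiquitin-ligase and chromatin proteins. The 40 mRNAs described here are a list of that kind, drawn by gene symbol from general knowledge, with the most-read row taken for each symbol. Each symbol matched 1 of the 52636 genes in the deposited count table. Binding by FMRP and translation were not measured in these libraries, which hold mRNA counts only.

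The libraries came from sorted cells of the dentate gyrus (DG), the region of the hippocampus where granule neurons form throughout life. There were 2 libraries from Fmr1-/y mice (called Fmr1-KO) and 2 from wild type (WT) littermates, all C57BL/6, aged 6 to 7 weeks and carrying the Dcx-DsRed reporter, in which DsRed marks cells that express doublecortin, a protein of neuroblasts and immature neurons. Each sample was 10000 living cells; the protocol covers sorts of all living cells and of DsRed-positive cells, and the design names the second. The labels do not give the knockout allele or the promoter construct of the reporter, and do not state that libraries of one genotype are separate animals. The p-values therefore weigh the genotype difference against a spread between libraries of one genotype that may be technical only.

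Totals ran from 5478224 to 7213759 counts per library. Fmr1 had 254 and 183 counts in Fmr1-KO libraries, against 431 and 636 in WT libraries, so the targeted transcript was lower in Fmr1-KO but not absent. The estimate was -1.17 on the log2 scale (standard error, SE, 0.36), with an unadjusted p of 0.0134 and a Benjamini-Hochberg adjusted p of 0.9999 by the quasi-likelihood test of edgeR. Neither pair of libraries was one library deposited again: the ratio of chi-square to its degrees of freedom was 54.2 for the Fmr1-KO pair and 38.2 for the WT pair. Markers of cells other than immature neurons were abundant, against the label of Dcx-DsRed cells. The summed level of 6 oligodendrocyte markers was 3801 and 9508 CPM (counts relative to the library total, scaled by the TMM method) in Fmr1-KO libraries 1 and 2, against 1819 and 10416 CPM in WT libraries 1 and 2. For 5 markers of oligodendrocyte precursors it was 647 and 4032 CPM in Fmr1-KO libraries, against 408 and 3177 CPM in WT libraries. For 6 neuroblast and immature neuron markers it was 2071 and 851 CPM in Fmr1-KO libraries, against 1728 and 698 CPM in WT libraries, so both lineages separated library 2 from library 1 in each genotype. Over the 4 libraries the 6 astrocyte markers summed to 6960 to 10218 CPM and the 6 mature granule neuron markers to 932 to 1249 CPM. The 3 interneuron markers summed to 66.8 to 139 CPM and the 4 markers of dividing cells to 77.9 to 290 CPM. Mature granule neuron markers went both ways. Prox1 had 951 and 481 CPM in Fmr1-KO libraries 1 and 2, against 874 and 540 CPM in WT libraries 1 and 2. Calb1, Plk5, Dsp and Rasgrp1 were higher in library 2 of both genotypes, and Syn1 was not higher in either. The 6 microglial markers summed to 16.8 to 51.3 CPM and the 4 endothelial markers to 10.2 to 45.2 CPM, with Tmem119, Cldn5 and Pecam1 each at 0 in at least 1 library.

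Length is what the list was named for. The deposited gene length had a median of 15800 bases over the 40 genes, from 3128 for App to 35004 for Ank2, against 4208 bases over the 14673 tested genes. In the GENCODE M21 transcript with the longest coding sequence of each gene, the median coding length was 7814 bases for the 40 genes and 1461 bases for 12726 tested coding genes, 1.4% of which exceeded the first of these values. A short motif that has been linked to FMRP crosslinking sites, AGGA or TGGA, was counted on the mRNA strand with overlapping matches included. It stood at a median of 16.4 matches per kilobase of coding sequence in the 40 genes and 16.3 in all tested coding genes, so its density did not set the list apart. Density varied within the list, from 11.7 per kilobase in Clasp2 to 24.3 in Sptan1.

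For the most abundant member per length of each of the 8 role groups, the window of 60 bases with the most matches was found. The 4 windows shown are those with the most matches among the 8, so they are the dense end of these 8 and not typical ones. Capitals mark AGGA or TGGA, and the sequences are GENCODE M21 transcripts on GRCm38, 5′ to 3′ on the mRNA strand.
Map1a: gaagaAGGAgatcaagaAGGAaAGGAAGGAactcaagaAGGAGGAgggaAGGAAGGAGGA
App: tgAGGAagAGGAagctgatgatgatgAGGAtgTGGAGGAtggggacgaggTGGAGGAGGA
Sptan1: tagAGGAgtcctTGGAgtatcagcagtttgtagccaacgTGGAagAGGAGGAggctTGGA
Prrc2b: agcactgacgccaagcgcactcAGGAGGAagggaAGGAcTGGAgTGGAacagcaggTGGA

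The Map1a window lies in coding exon sequence at chr2:121300675-121300734 on the plus strand (exon 5 of 7) and holds 9 matches, a number that 1.42% of tested coding genes reach in some window. The App window, at chr16:85056419-85056478 on the minus strand (exon 6 of 18), holds 8, reached by 2.34%. The windows of Sptan1 (chr2:30021202-30021261, plus strand, exon 43 of 57) and Prrc2b (chr2:32200878-32200937, plus strand, exon 11 of 32) hold 6 each, reached by 10.47%. The best windows of the members taken from the other role groups, not shown, hold 5 matches in Mycbp2 and in Adcy1 (reached by 27.99% each), 4 in Ncor1 (61.68%) and 3 in Agap2 (89.65%). Members that were not taken could hold more. Where windows may span exon junctions, the best one held 13 matches in Arid1b and 9 each in Huwe1 and Ep400. Longer coding sequences offer more windows, and a match describes the letters only.

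The 40 mRNAs were well covered and differed little between the genotypes. All 40 passed the filter on low counts, and 39 of them had at least 519 counts in every library. Together they took 2.22% and 2.22% of all counts in Fmr1-KO libraries, against 2.25% and 2.12% in WT libraries, so the groups overlapped. None was called at an adjusted p under 0.05 in edgeR's quasi-likelihood test, where 0% of the 14673 tested genes were called. At an unadjusted p under 0.05 there were also 0 of 40, against 0.47% of tested genes that were higher and 0.579% that were lower, and DESeq2 and limma voom gave 0 of 40 as well, where 1.68% and 0.593% of tested genes had such a p. The smallest unadjusted p, 0.255, belonged to Trio. Estimates lay within 1 standard error of 0 for 38 of 40 (95.0%), against 78.4% of all tested genes. They lay within 0.25 of 0 on the log2 scale for 34 of 40 (85.0%), against 44.3% of all tested genes. In the longest of 5 equal-sized bins by deposited length these shares were 80.9% and 59.5%. Among the 8680 other tested genes within the members' wide range of both length and level, they were 79.3% and 53.5%, with a median standard error of 0.43. None of these sets was closely matched in level, and the median was 413 CPM for the 40 and 25.7 CPM for all tested genes. The median standard error was 0.28 for the 40 and 0.53 for all tested genes. No member had an estimate beyond 1.5-fold in either direction in this fit; Pde2a, at -0.35, was at -1.67 in limma voom and -1.42 with the replicate number as a block, without passing either test.

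**Figure D1:**
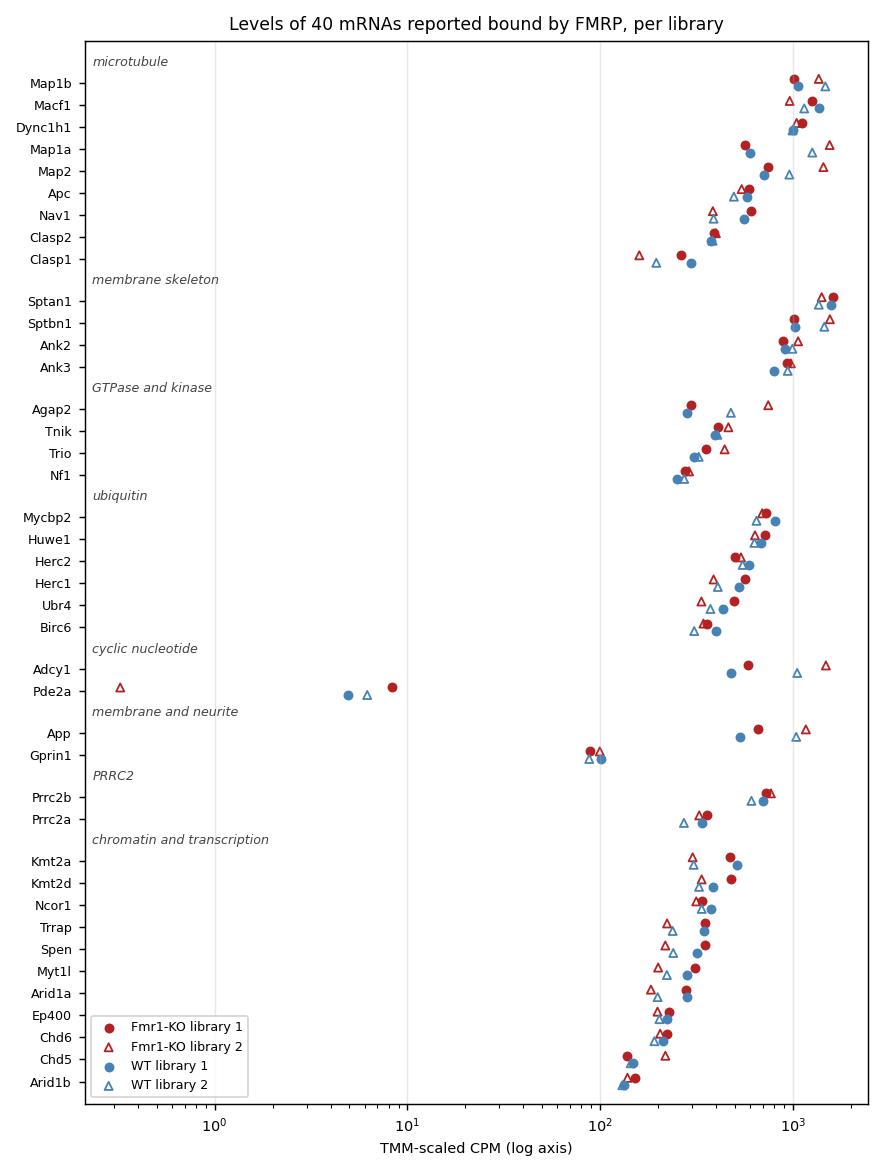
Level in TMM-scaled CPM (log axis) of each mRNA in each library, Fmr1-KO above WT on each line, circles for library 1 and triangles for library 2, grouped by role. Apart from Pde2a the levels run from 87.8 to 1611 CPM, and for many genes the circles and triangles stand further apart than the colours.

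Estimates above 0 were somewhat more common than below. The count was 27 of 40 above 0, with a median log2 fold change of 0.05, against 51.6% of all tested genes and a median of 0.02. Scaled by library size alone the count was 18 of 40 and the median -0.01. Both Fmr1-KO libraries lay above both WT libraries for 7 of the 40 (17.5%), against 11.8% of tested genes, and below them for 1 (2.5%), against 13.7%. The 7 were Dync1h1, Clasp2, Nf1, Trio, Tnik, Arid1b and Prrc2b, and the 1 was Herc2. These counts are of TMM-scaled CPM, depend on that scaling, and were not made under another one. Without WT replicate 2 the median log2 fold change of the 40 was -0.01.

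The count moved when length and level were taken into account. Split into 5 bins of equal size by deposited length, tested genes had a median log2 fold change of -0.06 in the shortest bin and -0.02, 0.03, 0.05 and 0.04 in the following ones. Among the 8680 other tested genes within the members' range of both length and level, 55.2% had estimates above 0, with a median of 0.04. This range is wide, since App sets its shortest length, 3128 bases, and Pde2a its lowest level. It therefore holds many genes shorter and lower than most members. The median level was 8.69 log2 CPM for the 40 and 4.70 for all tested genes. After subtracting a loess on length and level fitted over all tested genes, 18 of 40 estimates were above 0 with a median of -0.01, while 51.7% of all tested genes were above 0.

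**Figure D2:**
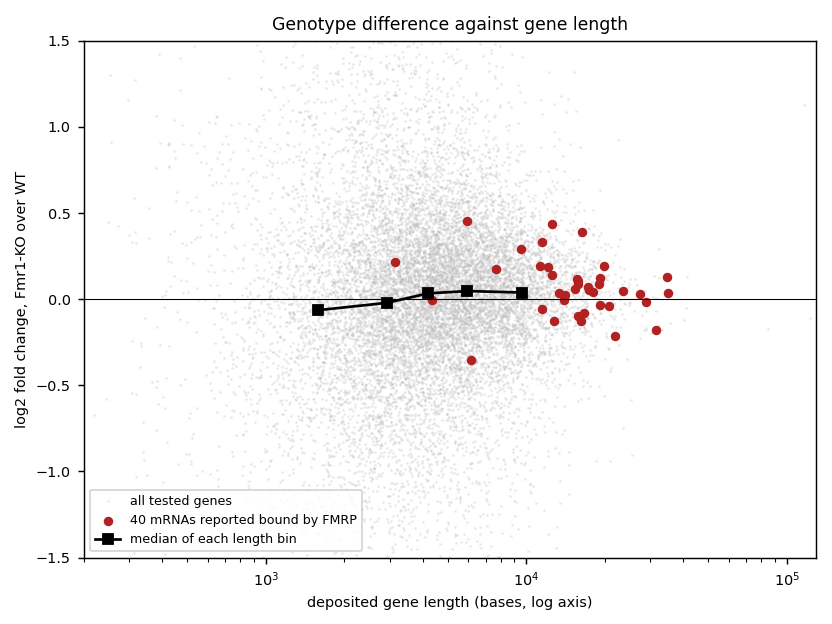
Log2 fold change, Fmr1-KO over WT, against deposited gene length in bases (log axis) for all tested genes (grey), the 40 mRNAs (red) and the median of each of 5 equal-sized bins by length (squares). Genes beyond 1.5 on the vertical axis are left out. The 40 sit between -0.35 and 0.46, and the medians of the 3 longer bins lie just above 0.

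Proteins of the microtubule cytoskeleton make up 9 of the list, and 6 had estimates above 0. Map1a, a microtubule-associated protein of mature dendrites and axons and the most abundant of the 9 per length, had 562 and 1552 CPM in Fmr1-KO libraries, against 597 and 1261 CPM in WT libraries. Library 2 was high in both genotypes, and the groups overlapped. The log2 fold change was 0.19 (SE 0.54) and turned to -0.74 without Fmr1-KO replicate 2 and -0.26 without WT replicate 1. Map2, which stabilises dendritic microtubules, had 744 and 1441 CPM in Fmr1-KO libraries, against 708 and 959 CPM in WT libraries. Its estimate of 0.39 (SE 0.37) was the highest of the 9, rested on Fmr1-KO library 2, and was -0.18 without that library. Clasp1, a protein of growing microtubule ends, had the lowest estimate of the 9, with 264 and 160 CPM in Fmr1-KO libraries, against 297 and 196 CPM in WT libraries. Here library 2 was the low one in both genotypes, the groups overlapped, and the log2 fold change was -0.22 (SE 0.36). It was 0.09 without Fmr1-KO replicate 2 and 0.11 without WT replicate 1.

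Clasp2 and Dync1h1 had close levels in all 4 libraries. Clasp2, the paralog of Clasp1, had 392 and 399 CPM in Fmr1-KO libraries, against 377 and 384 CPM in WT libraries. Dync1h1, the heavy chain of the dynein motor, had 1122 and 1047 CPM in Fmr1-KO libraries, against 1002 and 996 CPM in WT libraries. In TMM-scaled CPM both genes separated the genotypes, by log2 fold changes of 0.06 and 0.12 with standard errors of 0.25 each. Scaled by library size alone, the log2 fold changes were -0.0052 for Clasp2 and 0.06 for Dync1h1, so the separation depends on the scaling. Map1b, a protein of growing axons and a long-studied FMRP target, averaged 1187 ± 249 CPM in Fmr1-KO and 1268 ± 291 CPM in WT libraries (SD, n = 2 each). Macf1, which links actin to microtubules, averaged 1111 ± 210 CPM in Fmr1-KO and 1258 ± 158 CPM in WT libraries (SD, n = 2 each). Nav1, a neuron navigator, had 607 and 385 CPM in Fmr1-KO libraries, against 555 and 388 CPM in WT libraries. Library 2 was low in both genotypes, the groups overlapped, and the estimate was 0.07. Apc, a Wnt pathway scaffold that also binds microtubule ends, had an estimate of 0.09.

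The membrane skeleton genes encode ankyrins, which anchor channels and adhesion molecules, and the spectrins they bind. All 4 had estimates from 0.04 to 0.13, and none separated the genotypes. Sptan1, the alpha spectrin and the most abundant of the group per length, had 1611 and 1411 CPM in Fmr1-KO libraries, against 1580 and 1363 CPM in WT libraries. Each WT library had a near equal among the Fmr1-KO libraries, and the log2 fold change was 0.04 (SE 0.26), turning to -0.02 when scaled by library size alone. Ank3, the ankyrin of the axon initial segment, had 933 and 976 CPM in Fmr1-KO libraries, against 803 and 941 CPM in WT libraries. Only WT library 1 stood low, and the log2 fold change was 0.13 (SE 0.26).

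Regulators of small GTPases and a kinase had estimates above 0 in 4 of 4, with a median of 0.23, and 3 of the 4 had both Fmr1-KO libraries above both WT libraries, against 11.8% of tested genes. Agap2, an activator of GTP hydrolysis by Arf proteins and the most abundant of the group per length, had 298 and 745 CPM in Fmr1-KO libraries, against 284 and 477 CPM in WT libraries. It had the highest estimate of the whole list, 0.46 (SE 0.48), but the groups overlapped and the estimate was -0.36 without Fmr1-KO replicate 2. Nf1, the Ras inhibitor neurofibromin, had 274 and 289 CPM in Fmr1-KO libraries, against 252 and 273 CPM in WT libraries. The groups lay next to each other without overlap, and the log2 fold change was 0.10 (SE 0.26). Trio, a guanine nucleotide exchange factor, had 354 and 443 CPM in Fmr1-KO libraries, against 308 and 325 CPM in WT libraries, a log2 fold change of 0.33 (SE 0.27). Tnik, a kinase of the postsynaptic density and the Wnt pathway, had 407 and 463 CPM in Fmr1-KO libraries, against 394 and 406 CPM in WT libraries. The estimate of Tnik, 0.12, had a standard error of 0.26. Scaled by library size alone, the log2 fold changes were 0.04 for Nf1, 0.26 for Trio and 0.06 for Tnik.

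Ubiquitin ligases, very large proteins that mark others for degradation, were split 3 above 0 and 3 below, with estimates from -0.13 to 0.05. Mycbp2, a ligase of axon growth and the most abundant of the 6 per length, had 726 and 694 CPM in Fmr1-KO libraries, against 808 and 648 CPM in WT libraries, so that the Fmr1-KO libraries lay between the WT libraries. Huwe1, encoded on the X chromosome, had 720 and 636 CPM in Fmr1-KO libraries, against 680 and 632 CPM in WT libraries, and also overlapped. Herc2 had 504 and 538 CPM in Fmr1-KO libraries, against 589 and 549 CPM in WT libraries. It was the member that lay lower in both Fmr1-KO libraries, by a log2 fold change of -0.13 (SE 0.25). The estimates of Herc1, Ubr4 and Birc6 were 0.03, 0.04 and -0.02.

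Enzymes of cyclic nucleotide signalling gave the widest spread. Adcy1, the calmodulin-stimulated adenylyl cyclase, had 587 and 1484 CPM in Fmr1-KO libraries, against 479 and 1053 CPM in WT libraries. Library 2 was high in both genotypes, and the log2 fold change was 0.43 (SE 0.53). It was -0.40 without Fmr1-KO replicate 2 and -0.03 without WT replicate 1. Pde2a, a phosphodiesterase that degrades cyclic nucleotides, was the exception in depth, with 49 and 2 counts in Fmr1-KO libraries, against 29 and 43 in WT libraries. In CPM it stood at 8.37 and 0.324 in Fmr1-KO libraries, against 4.92 and 6.19 in WT libraries. Its estimate of -0.35 (SE 1.44) rested on Fmr1-KO library 2 and was 0.58 without it. In GENCODE M21 the Pde2a gene shares 3955 exon bases with Gm45837, a gene on the same strand that had 3 counts over the 4 libraries, and how the authors' counting treated reads shared by both is not given in the sources used here.

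The membrane and neurite genes were App, the amyloid precursor protein, and Gprin1, a partner of G proteins in neurite outgrowth. By deposited length, App was the most abundant member of the list, at 272 CPM per kilobase on average. That length, 3128 bases, is shorter than the 5649 bases of 3′ untranslated sequence in its GENCODE M21 transcript. The rank therefore rests on the deposited value. App had 657 and 1168 CPM in Fmr1-KO libraries, against 532 and 1041 CPM in WT libraries. Library 2 was high in both genotypes, and the log2 fold change was 0.21 (SE 0.42), or -0.27 without Fmr1-KO replicate 2 and -0.19 without WT replicate 1. Gprin1 had 88.6 and 99.6 CPM in Fmr1-KO libraries, against 101 and 87.8 CPM in WT libraries. The ranges coincided, and its estimate of -0.003 had a standard error of 0.29.

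Prrc2a and Prrc2b encode large proline-rich proteins that associate with RNA. Prrc2b had 726 and 769 CPM in Fmr1-KO libraries, against 700 and 610 CPM in WT libraries, without overlap. Prrc2a had 359 and 327 CPM in Fmr1-KO libraries, against 337 and 272 CPM in WT libraries, with overlap. The log2 fold changes were 0.19 and 0.17, with standard errors of 0.25 and 0.27.

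Chromatin and transcription genes, 11 in all, had 6 estimates above 0 and 5 below, with a median of 0.02. They include the corepressors Spen and Ncor1, the acetyltransferase scaffold Trrap, the histone methyltransferases Kmt2a and Kmt2d, the remodellers Ep400, Chd5 and Chd6, the BAF complex subunits Arid1a and Arid1b, and the neuronal factor Myt1l. Ncor1, the most abundant of them per length and the one with the lowest estimate, had 337 and 315 CPM in Fmr1-KO libraries, against 376 and 337 CPM in WT libraries. The highest Fmr1-KO value met the lowest WT value, and the log2 fold change was -0.13 (SE 0.26). Chd5, a remodeller of neurons, had the highest estimate of the 11, with 138 and 218 CPM in Fmr1-KO libraries, against 147 and 144 CPM in WT libraries. Only Fmr1-KO library 2 was high, and the estimate of 0.29 (SE 0.32) was -0.09 without it. Arid1b had 152 and 139 CPM in Fmr1-KO libraries, against 133 and 130 CPM in WT libraries. It was the 1 gene of the 11 that separated the genotypes in TMM-scaled CPM. That share, 9.09%, was below the 11.8% of all tested genes with both Fmr1-KO libraries above both WT libraries.

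**Figure D3:**
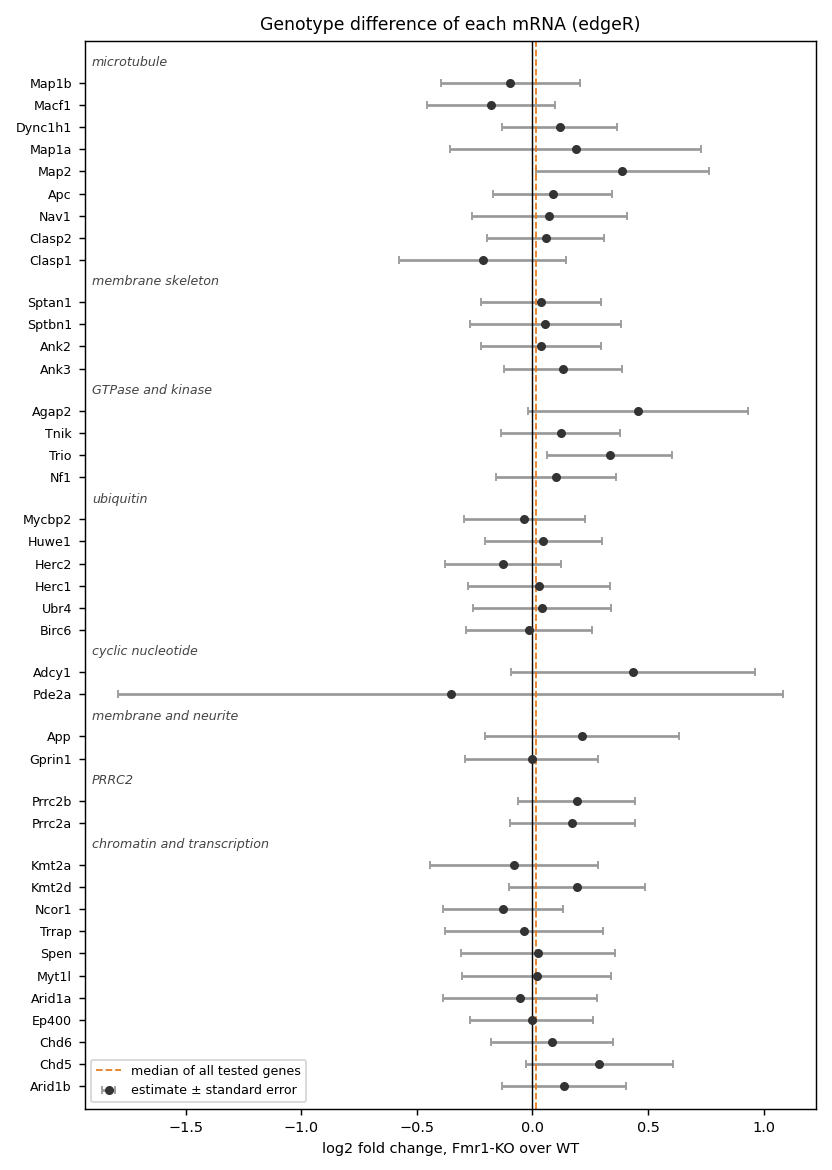
Log2 fold change, Fmr1-KO over WT, of each mRNA with its standard error (edgeR), grouped by role; the dashed line is the median of all tested genes. The bars of 38 of the 40 reach 0, and Pde2a has the widest bar.

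Libraries of one genotype also differed within the list. Between the 2 Fmr1-KO libraries 15 of the 40 were more than 1.5-fold apart, and between the 2 WT libraries 6 were. The median absolute log2 ratio between libraries was 0.35 in Fmr1-KO and 0.25 in WT for the 40, against 0.66 in Fmr1-KO and 0.50 in WT for all tested genes. Library 2 differed from library 1 in the same direction in both genotypes for 35 of 40 (87.5%), against 65.7% of all tested genes. The labels do not say that equal numbers mark a shared litter or day.

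The direction differed between some role groups and was mixed within others. Of the 11 chromatin and transcription genes, 10 were lower in library 2 than in library 1 in both genotypes, against 33.5% of all tested genes, with a median log2 ratio of -0.50 in Fmr1-KO and -0.24 in WT libraries. Kmt2a, for example, had 471 and 302 CPM in Fmr1-KO libraries 1 and 2, against 512 and 306 CPM in WT libraries 1 and 2. Of the 6 ubiquitin ligases, 5 were lower in library 2 in both genotypes. The 4 regulators of GTPases and kinases were all higher in library 2 in both genotypes, against 32.3% of all tested genes. Their median log2 ratios were smaller, 0.25 in Fmr1-KO and 0.10 in WT, where Tnik was at 0.04 and Trio at 0.08. TMM factors were 1.04 and 0.92 in Fmr1-KO libraries 1 and 2, and 1.08 and 0.97 in WT libraries 1 and 2. Ratios this near 0 depend on that scaling, and their direction was not counted under another one. The 9 microtubule genes were split. Map1a, Map1b, Map2 and Clasp2 were higher in library 2 in both genotypes, and the other 5 (Dync1h1, Clasp1, Apc, Nav1 and Macf1) were lower in both. Clasp2 was close to 0, at 0.02 in Fmr1-KO and 0.03 in WT, as was Dync1h1, at -0.10 in Fmr1-KO and -0.01 in WT. Sptbn1, Adcy1 and App were also higher in library 2 in both genotypes. The largest log2 ratios of library 2 over library 1 were those of Map1a, at 1.47 in Fmr1-KO and 1.08 in WT, and of Adcy1, at 1.34 in Fmr1-KO and 1.14 in WT. Oligodendrocyte lineage markers were higher and neuroblast markers lower in library 2 of both genotypes, at the levels given above. Astrocyte markers were also lower there in sum, at 10218 and 6960 CPM in Fmr1-KO libraries 1 and 2, against 9850 and 8351 CPM in WT libraries 1 and 2. Summed markers of dividing cells were lower too. Those of interneurons, microglia and endothelium were higher in sum, and mature granule neuron markers went both ways. The mitochondrial share of counts moved with the same split, at 1.89% and 5.99% in Fmr1-KO libraries 1 and 2, against 1.78% and 4.49% in WT libraries 1 and 2. The part of the cell types or of the mitochondrial share in these differences between libraries was not tested. In bulk libraries fewer cells of a type and less RNA per cell cannot be told apart.

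**Figure D4:**
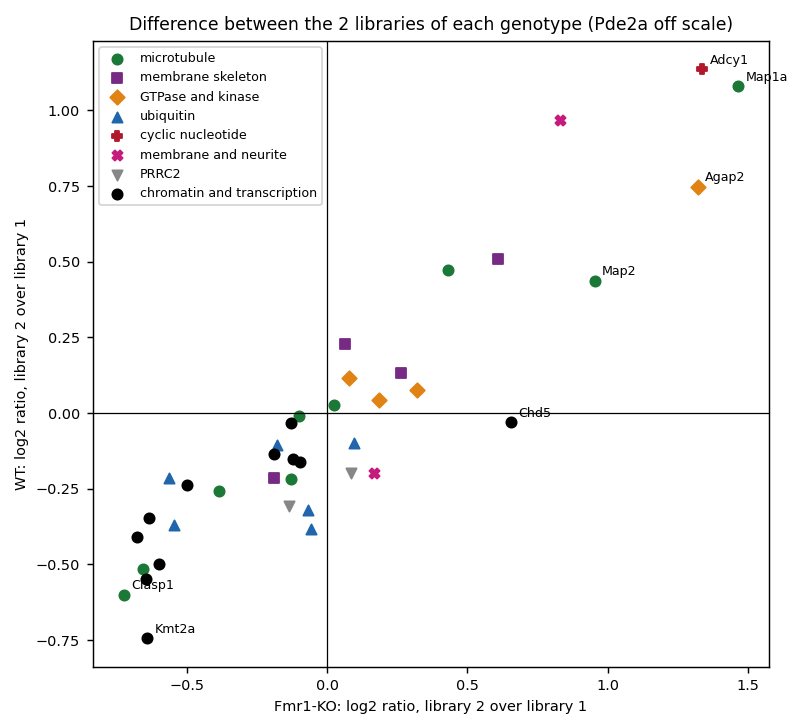
Log2 ratio of library 2 over library 1 in Fmr1-KO (horizontal) and in WT (vertical) for 39 mRNAs, coloured by role; Pde2a is off scale. Chromatin genes lie at the lower left except Chd5, and Adcy1, Map1a and Agap2 at the upper right.

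A second list of 45 mRNAs reported to be bound by FMRP, many of them synaptic, also had no member called. All 45 were tested, and 0 had an unadjusted p under 0.05 by edgeR. Estimates were above 0 for 31 of 45 (68.9%) with a median of 0.10, against 51.6% of all tested genes and a median of 0.02. In the longest of the 5 bins by deposited length, 55.9% were above 0, with a median of 0.04. No count after the loess on length and level was made for this list. Both Fmr1-KO libraries lay above both WT libraries for 2 (4.44%), against 11.8% of tested genes, and below them for 5 (11.1%), against 13.7%. Camk2a, a kinase of the postsynaptic density and the most abundant of the 45 per length, had 819 and 2954 CPM in Fmr1-KO libraries, against 774 and 1777 CPM in WT libraries. Library 2 was again the high one, and the groups overlapped. Dlgap3, a scaffold of the postsynaptic density, had the highest estimate, with 48.7 and 117 CPM in Fmr1-KO libraries, against 23.7 and 50.3 CPM in WT libraries, a log2 fold change of 1.16 (SE 0.54). Its paralog Dlgap2 had the lowest, with 21.7 and 31.3 CPM in Fmr1-KO libraries, against 36.6 and 37.6 CPM in WT libraries, a log2 fold change of -0.49 (SE 0.41). The difference between the paralogs was not tested.

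Counting could blur some of these values. In GENCODE M21, 19 of the 40 genes share exon bases with another annotated gene, mostly on the opposite strand, and the strand setting of the counting is not given. For 10 of them a sharing gene had counts, and for 3 (Ubr4, Spen and Ncor1) its total exceeded 10% of the member's own. The stretch shared with that gene was short. It was 109 bases on the same strand for Ubr4, and 41 bases for Spen and 1 base for Ncor1 on the opposite strand.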

How the data were processed

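Per the labels' protocols, strand-specific poly(A) libraries were sequenced as read pairs. Per the submitters' processing notes, the aligner was STAR 2.5.3a and the build GRCm38. The authors deposited raw counts per gene and each gene's length in bases. Which program counted the reads, and with which strand setting, is not given in the sources used here. The table held 0 further columns of per-sample values.

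Genes were filtered with filterByExpr, scaled by TMM and compared with edgeR 4.0.16 (R 4.3.3; robust quasi-likelihood F-test, two-sided, genotype as the only term), with Benjamini-Hochberg adjustment over all 14673 tested genes. Standard errors were computed from each estimate and its F statistic. Log2 ratios between libraries used a prior count of 2. The edgeR fit was tested on simulated data. Alternatives used DESeq2 1.42.0, limma 3.58.1 (voom), other scalings and filters, the replicate number as a block, and each library left out. Positions and coding sequences came from GENCODE M21, which held 99.72% of the genes and may not be the authors' release.

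The members and lists were chosen with earlier results of these data known. Per-library values are given for the most abundant member per length and for the highest and lowest estimates of each role group; others are shown because they separate the genotypes or the libraries and were chosen after their values were seen.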

Additional observations from a re-analysis of the deposited data

How the results depend on the processing

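With 2 libraries per genotype, edgeR's common biological coefficient of variation came to 0.538, and Pde2a was the member limited by depth. No member was called in any alternative with a test. The count of estimates above 0 was 17 with the replicate block and the loess on length and level together, and 18 with that loess or with library size scaling alone; the loess gives no test. Leaving out 1 library each gave 19 to 30 estimates above 0 and medians from -0.01 to 0.13. With the replicate block, which the labels do not establish as a pairing (deviations of same-numbered libraries correlated at 0.36), 10 genes were called over the table, 0.0682% of those tested, none of them a member, and 3 members had an unadjusted p under 0.05: Adcy1, Map2 and Agap2 (log2 fold changes 0.39, 0.33 and 0.36, adjusted p from 0.688 in edgeR), where 5.3% of tested genes had one. Leaving out 1 library gave 0 to 2 members with an unadjusted p under 0.05, the 2 without Fmr1-KO replicate 1.

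Of the 40 members, 29 changed sign under some alternative and 11 under none. Sptan1 was -0.0243 scaled by library size, -0.0558 with the loess and -0.0623 with the block and the loess. In the same order Huwe1 was -0.0127, -0.0085 and -0.0132, and Clasp2 was -0.0052, -0.0086 and -0.0090. Gprin1 was 0.0106 with DESeq2 size factors in edgeR, 0.0106 in DESeq2 and 0.0015 in limma voom. With 1 library left out, the log2 fold change ranged for Map1a from -0.74 to 0.81, Map2 from -0.18 to 0.79, Clasp1 from -0.62 to 0.11, Sptan1 from -0.0778 to 0.14, and Agap2 from -0.36 to 0.97. It also ranged for Mycbp2 from -0.1995 to 0.13, Huwe1 from -0.0438 to 0.12, Chd5 from -0.0888 to 0.58, App from -0.27 to 0.77, and Gprin1 from -0.11 to 0.0949. The remaining ranges were those of Adcy1, from -0.395 to 1.10, Pde2a from -4.02 to 0.58, Map1b from -0.34 to 0.15, and Kmt2a from -0.43 to 0.33. The cause was not tested.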
